A study of Mus musculus with 4 samples.

Results

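The AP-1 family is a set of basic leucine zipper (bZIP) transcription factors. The members described here were taken by gene symbol and were Fos, Fosb, Fosl1 and Fosl2 of the FOS subfamily, Jun, Junb and Jund of the JUN subfamily, and Batf, Batf3 and Atf3. All 10 were found among the 16142 genes of the expression table. RNA-seq was performed on splenic CD4+ T cells, with 2 libraries from WT B6 mice and 2 libraries from Cd4CreERT2 LSL-R111A fl/fl mice, and the comparison asked how a Regnase-1 protein that resists cleavage changes gene expression in activated T cells. In the R111A mice, an alanine replaced the arginine at which the MALT1 protease cuts Regnase-1, and the mutant was made from a transgene marked by EGFP behind a floxed Stop cassette, in cells in which tamoxifen-inducible Cre driven from Cd4 had acted. Tamoxifen was given intraperitoneally at 75 mg/kg for 5 days. The source of the cells is described in a way that does not show clearly whether the WT mice of these libraries also received it, although treated WT mice served as controls in other assays of the study. The sorted cells of both groups were activated for 12 h with antibodies to CD3 (5 µg/mL) and CD28 (1 µg/mL), so the later activated state and not the first minutes of stimulation was sampled. Endogenous Regnase-1 alleles were still present, so the R111A cells carried the mutant on top of the normal protein. The groups thus differed in the dose of Regnase-1, its resistance to cleavage, Cre and EGFP, and these cannot be told apart here. Nothing states whether replicates came from separate animals, and p-values then measure only the spread between these libraries. In bulk RNA, fewer cells of a type and less RNA per cell cannot be told apart.

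FOS proteins bind DNA as partners of JUN proteins, while JUN proteins can also pair with each other. In T cells, the antigen receptor and CD28 induce these factors through MAP kinases, and AP-1 dimers bind with NFAT at many cytokine genes. BATF lacks a transactivation domain, pairs with JUN proteins and binds with IRF4 at composite elements of activated T cells.

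Expression was given as FPKM, a unit scaled for transcript length and library size, which allows levels of different genes to be compared within a library. Zc3h12a, the gene of Regnase-1, was at 17.0 and 15.7 FPKM in WT replicates 1 and 2 and at 196 and 131 FPKM in R111A replicates 1 and 2, in the order of the labels. Reads of the transgene and of the normal gene cannot be told apart in these values. Differences are given below on the log2(FPKM + 1) scale, which understates the change of genes with low values, and were tested with limma in the 9831 genes whose mean over the libraries reached 1 FPKM. A gene was called when it changed 2-fold with an adjusted p under 0.05. Of the 10 members, 9 passed the filter, each with a mean of 1 FPKM or more in both groups, and Batf3 did not. Among these 9, 4 were called higher in R111A (Fos, Fosl2, Jun and Junb), against 8.52% of all genes tested, and 1 was called lower (Batf), against 8.34%. By the adjusted p alone, 6 were higher, against 21.2% of all genes, and 2 were lower, against 32.1%. The median log2 fold change was 0.91 over the 9 members and -0.12 over all genes tested. Groups without overlap were common, with both R111A libraries above both WT libraries in 6 of the 9 members, against 32.0% of all genes tested. They were below both WT libraries in 2 members, against 46.3%.

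Fosl2 encodes Fra-2, a FOS protein without the strong transactivation domain of c-Fos. It was at 5.16 and 4.77 FPKM in the WT libraries and at 34.6 and 31.5 FPKM in the R111A libraries. Both R111A libraries were far above both WT libraries, and the replicates of each group lay close together. Mean FPKM was 6.66-fold higher, and the log2 fold change was 2.51 (SE 0.14, 95% interval 2.20 to 2.83, limma adjusted p = 7.3e-06), with 2 libraries a group. It had the largest rise of the 9 members tested.

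Fos, the prototype immediate early gene, was at 4.30 and 4.66 FPKM in the WT libraries against 12.5 and 9.78 in R111A. The groups did not overlap, with R111A replicate 1 the highest. The log2 fold change was 1.14 (SE 0.16, limma adjusted p = 0.00052). Fosb, a close relative of Fos, was low in every library, at 1.14 and 0.88 FPKM in the WT libraries against 3.22 and 2.35 in R111A. It was higher in both R111A libraries, with a log2 fold change of 0.91 (limma adjusted p = 0.0019), which did not reach 2-fold on this scale although the mean FPKM was 2.76-fold higher. Fosl1, which encodes Fra-1, was at 13.7 and 13.2 FPKM in the WT libraries against 32.3 and 20.02 in R111A. Its WT libraries were nearly equal, its R111A libraries were both higher, and the gap between the R111A replicates was wide. The log2 fold change was 0.87 (limma adjusted p = 0.0077), against 0.54 without R111A replicate 1 and 0.56 with TPM. With a pseudocount of 5 FPKM, Fosb was at 0.37 and Fos, at 0.76, was no longer called, and with 0.1 FPKM Fosb was called at 1.37.

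Among the JUN genes, Jun, which encodes c-Jun, was at 6.05 and 6.19 FPKM in the WT libraries against 17.7 and 12.4 in R111A. The groups did not overlap, and the log2 fold change was 1.15 (SE 0.18, limma adjusted p = 0.0009), which was not called with a pseudocount of 5 FPKM (0.84). Junb was the most abundant member in each of the 4 libraries, at 110.1 and 119 FPKM in the WT libraries against 294 and 197 in R111A. Both R111A libraries were above both WT libraries, and replicate 1 was well above replicate 2. The log2 fold change was 1.07 (SE 0.19, limma adjusted p = 0.0016), which was not called after correction for length and GC content (0.98). Jund, which is expressed broadly in resting and activated cells, went the other way, at 94.4 and 97.0 FPKM in the WT libraries against 74.8 and 49.6 in R111A. Both R111A libraries were below WT, but they differed from each other by more than replicate 1 differed from WT. Its log2 fold change was -0.64 (95% interval -1.07 to -0.21, limma adjusted p = 0.019), under the 2-fold threshold, against -0.93 without R111A replicate 1 and -0.35 without R111A replicate 2. The Jund difference did not pass the adjusted p with median-of-ratios factors (adjusted p = 0.06), after quantile normalization (0.13), without the expression filter (0.081) or without WT replicate 2 (0.057), and Fosl1 did not pass it without the filter (0.054).

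Batf was at 65.1 and 58.7 FPKM in the WT libraries against 22.1 and 21.8 in R111A. The R111A replicates were almost equal, and both were far below WT. Mean FPKM was 2.82-fold higher in WT, and the log2 fold change was -1.45 (SE 0.13, 95% interval -1.75 to -1.15, limma adjusted p = 5.3e-05), the only called fall among the members. Batf3, its relative that is best known in dendritic cells, was listed at 0 in WT replicate 1 and in both R111A libraries and at 0.83 FPKM in WT replicate 2, so no fold change is given. Atf3, a stress-induced bZIP factor that can pair with JUN proteins, was at 12.1 and 10.4 FPKM in the WT libraries against 12.3 and 10.5 in R111A. These groups overlapped, with a log2 fold change of 0.01 (95% interval -0.33 to 0.36, limma adjusted p = 0.95), which was -0.30 after rescaling to TPM and 0.15 with median-of-ratios factors.

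**Figure D1:**
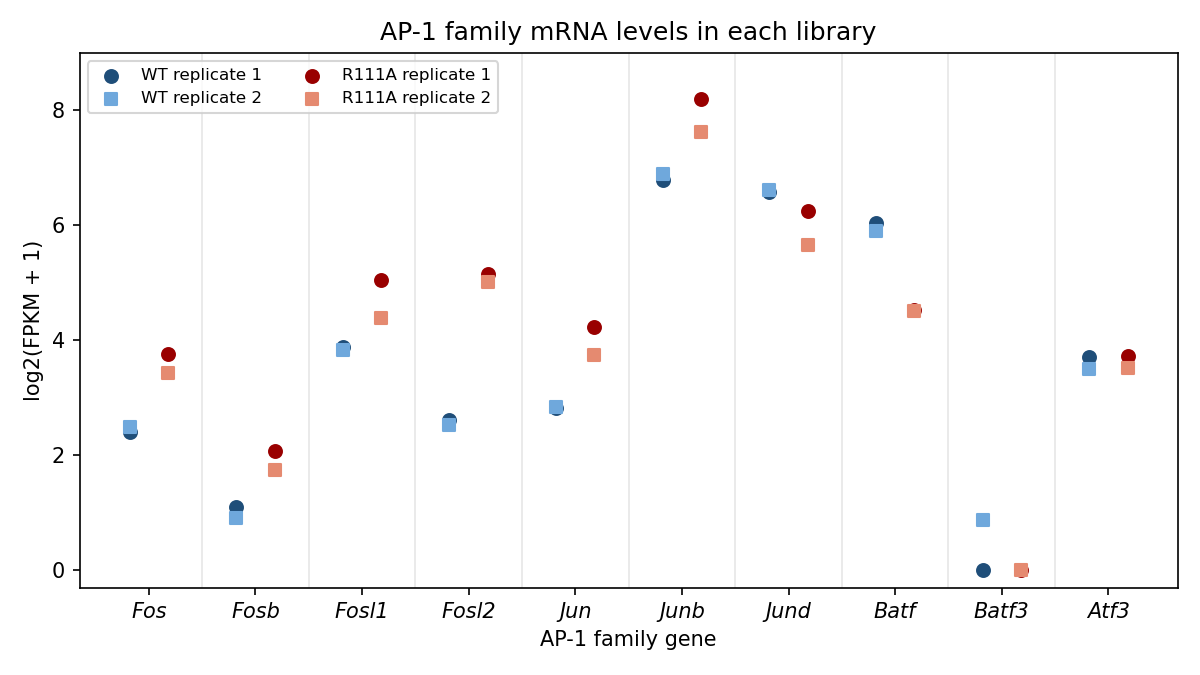
Levels of the 10 AP-1 family genes, as log2(FPKM + 1), with 1 point per library, WT in blue and R111A in red. Fosl2 and Batf stand farthest from overlap, at 5.16 and 4.77 against 34.6 and 31.5 FPKM and at 65.1 and 58.7 against 22.1 and 21.8 FPKM, while the Atf3 libraries of both groups lie together.

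In WT cells the order of levels by mean FPKM was Junb (114), Jund (95.7), Batf (61.9), Fosl1 (13.5), Atf3 (11.3), Jun (6.12), Fosl2 (4.96), Fos (4.48), Fosb (1.01) and Batf3. Fosl2 and Fos were neighbours whose libraries lay close, with SDs of 0.276 and 0.255 FPKM. In R111A cells it was Junb (246), Jund (62.2), Fosl2 (33.1), Fosl1 (26.2), Batf (22.0), Jun (15.0), Atf3 (11.4), Fos (11.2), Fosb (2.79) and Batf3. The libraries of Fosl2 overlapped those of Fosl1, Batf lay within the spread of Fosl1, the libraries of Atf3 overlapped those of Fos, and the lower Jun library lay between the 2 Fos libraries. By mean FPKM, Fosl2 passed Fosl1, Batf, Atf3 and Jun.

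**Figure D2:**
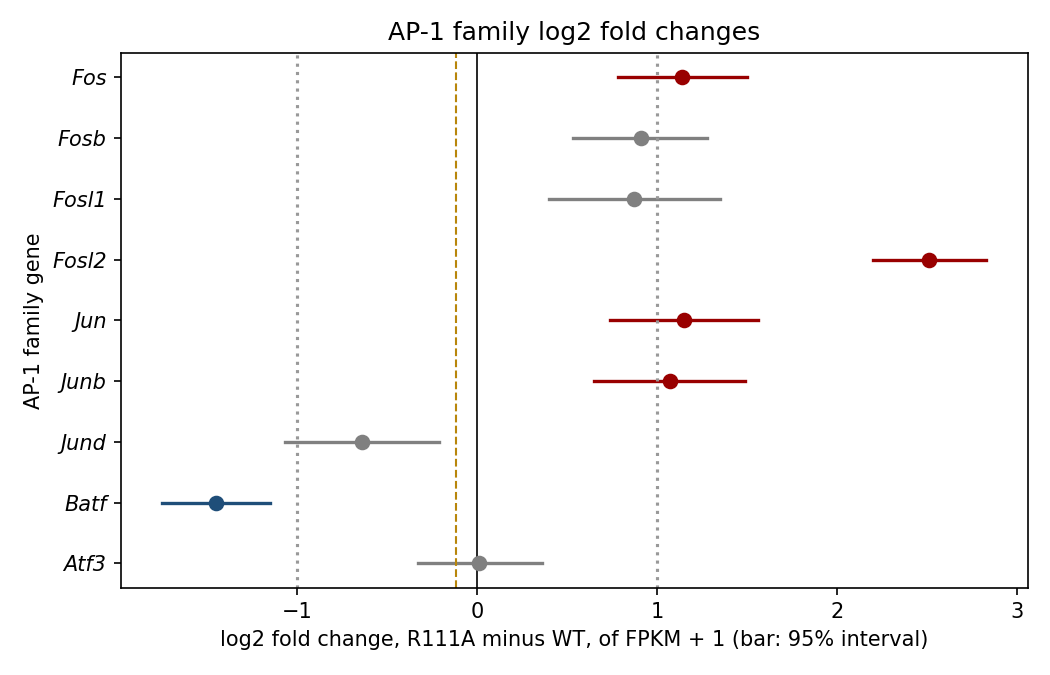
Log2 fold change of log2(FPKM + 1), R111A minus WT, for the 9 members tested, with 95% intervals from limma (n = 2 libraries a group). Red marks called higher, blue called lower and grey not called, dotted lines mark 2-fold, and the dashed line marks the median of all genes tested at -0.12. Fosl2 lies at 2.51 and Batf at -1.45.

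The makeup of the family followed from these values. FOS subfamily mRNA summed to 24.3 and 23.5 FPKM in WT and to 82.7 and 63.6 FPKM in R111A. JUN subfamily mRNA summed to 211 and 222 FPKM in WT and to 387 and 259 FPKM in R111A. Both sums were higher in both R111A libraries, by 3.06-fold and 1.49-fold in the means, and the order held after rescaling to TPM except for JUN in R111A replicate 2, where the TPM sum was 256 against 263 and 265 in WT. The ratio of FOS to JUN mRNA was 0.115 and 0.106 in WT and 0.214 and 0.245 in R111A, 2.07-fold higher, which scaling leaves unchanged because both sums come from the same library. The exact permutation p was 0.33 (two-sided, n = 2 a group), and no p under 0.05 can arise with 2 against 2, so the ratio is a description. Within the FOS sum, Fosl1 made up 56.4% and 56.2% in WT and 39.1% and 31.5% in R111A, while Fosl2 went from 21.2% and 20.3% to 41.9% and 49.5%. The ratio of Junb to Jund was 1.17 and 1.22 in WT and 3.93 and 3.98 in R111A. Batf made up 20.9% and 18.6% of family mRNA in WT and 4.39% and 6.13% in R111A.

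**Figure D3:**
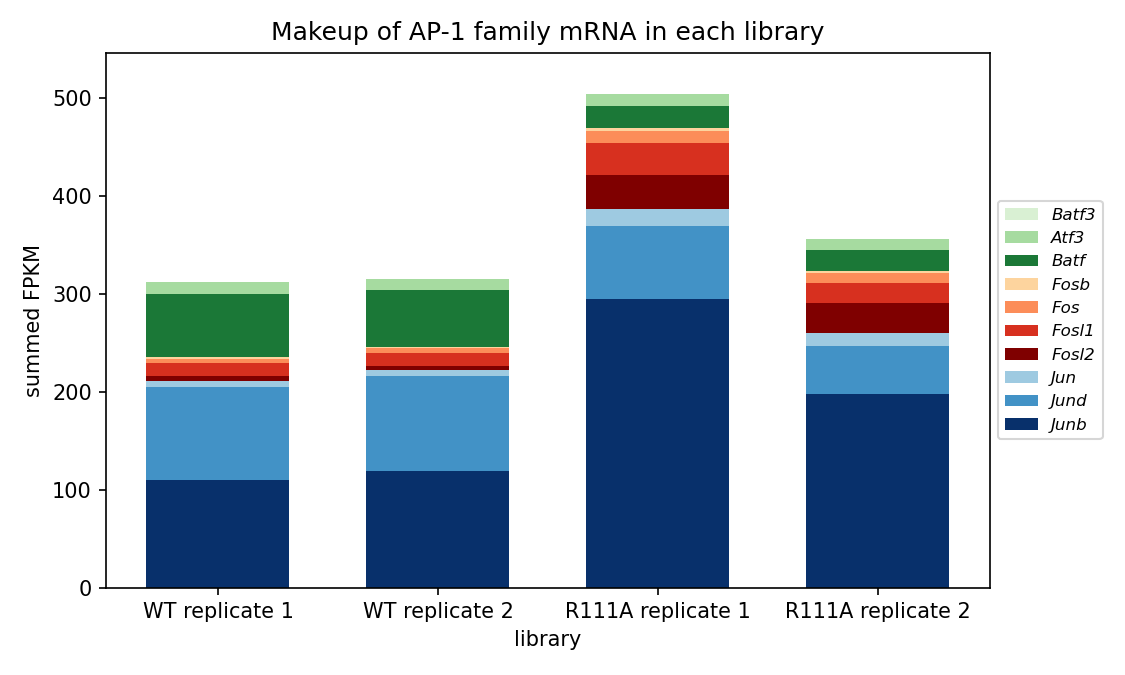
Summed FPKM of the 10 AP-1 family genes in each of the 4 libraries, stacked by gene, with JUN genes in blue, FOS genes in red and orange and Batf, Batf3 and Atf3 in green. The total was 312 and 315 FPKM in WT and 504 and 355 FPKM in R111A, and the Batf part is thin in both R111A libraries.

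The R111A replicates differed from each other. All 9 members tested were higher in R111A replicate 1 than in R111A replicate 2, against 48.4% of all genes tested. Without R111A replicate 1, only Fosl2 was still called higher, and the log2 fold changes of Fos, Jun and Junb were 0.98, 0.91 and 0.78. Without R111A replicate 2, Fosb and Fosl1 were also past the threshold, Fosb at 1.07. FPKM values did not sum to the same total in each library, so rescaling to TPM moved the median of all genes by -0.30 and median-of-ratios factors moved it by 0.14. Of the calls, 50.5% were higher with FPKM, 24.8% with TPM and 63.0% with median-of-ratios factors. After rescaling to TPM, only Fosl2 was called higher, while relative to the median of all genes the log2 fold changes were 2.64 for Fosl2, 1.28 for Fos, 1.28 for Jun, 1.16 for Junb and -1.36 for Batf. With FPKM as given by the authors the same differences from the median were 2.63, 1.26, 1.27, 1.18 and -1.34. Over the 4 scalings, as FPKM, TPM, median-of-ratios or quantile-normalized values, Fos, Fosb, Fosl1, Fosl2, Jun and Junb kept a positive and Jund and Batf a negative log2 fold change, and Atf3 changed sign.

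**Figure D4:**
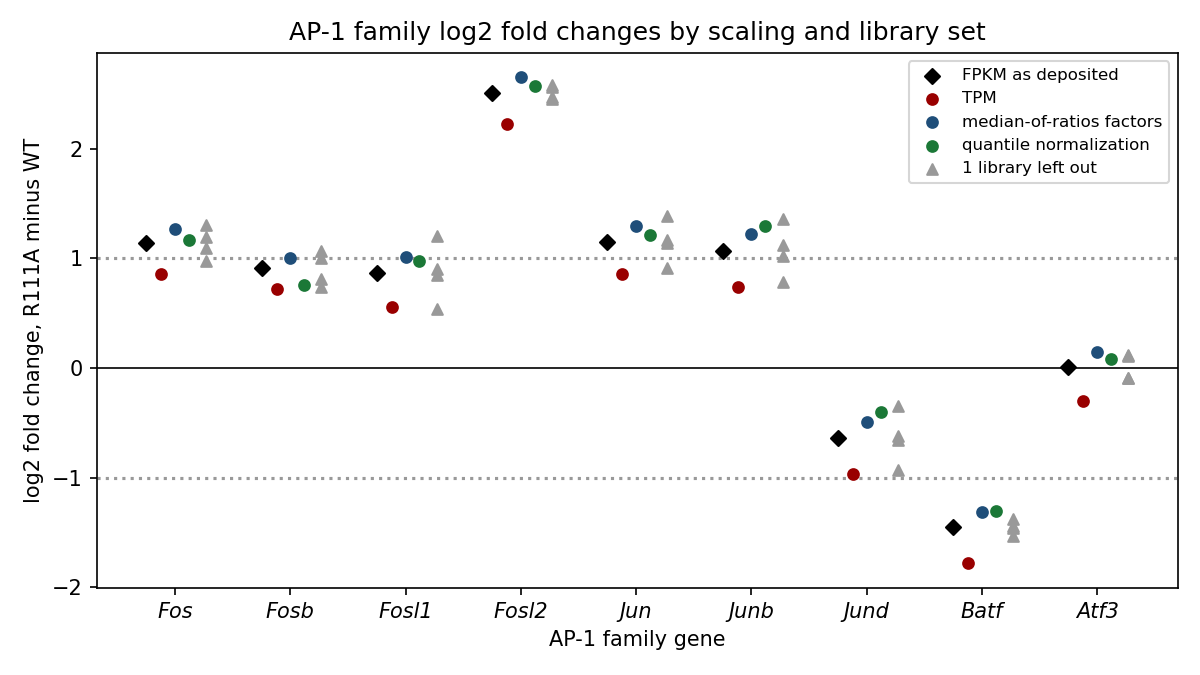
Log2 fold change, R111A minus WT, of the 9 members tested, by scaling (diamonds and circles) and with 1 library left out in turn (triangles), with dotted lines at 2-fold. Fosl2 and Batf stay beyond 2-fold in each setting drawn, Fos, Jun and Junb fall under it with TPM at 0.86, 0.86 and 0.74, and Atf3 lies on both sides of 0.

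The genes whose pattern over the 4 libraries was most like that of Fosl2, by Euclidean distance of centred log2(FPKM + 1) among 7640 other genes averaging 5 FPKM or more, were Col11a2 (distance 0.172), Carns1 (0.177) and Dop1b (0.183). Dop1b was at 2.75 and 3.15 FPKM in the WT libraries against 23.9 and 20.4 in R111A. Those most like Batf were Heg1 (0.038), Tmem131l (0.039) and Mavs (0.040), and Tmem131l was at 29.6 and 26.1 FPKM in the WT libraries against 9.44 and 9.15 in R111A.

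Promoters of members that moved are shown because cAMP- and stress-responsive elements of FOS and JUN genes lie close to their start sites. RefSeq (GRCm38.p6) gave the 300 bases around the start of 9 members, 250 before and 50 after it. The promoter set used held no sequence for Fosl1, although its gene position (chr19:5447698-5455938) was listed. The 120 bases before the start are printed 5′ to 3′ on the gene's strand, with capitals for TGACG, TGACNTCA and TATAA, for Fos (chr12:85473770-85473889, plus strand), Fosb (chr7:19310046-19310165, minus strand), Fosl2 (chr5:32136352-32136471, plus strand), Jun (chr4:95052223-95052342, minus strand), Junb (chr8:84978749-84978868, minus strand) and Batf (chr12:85686600-85686719, plus strand).
Fos: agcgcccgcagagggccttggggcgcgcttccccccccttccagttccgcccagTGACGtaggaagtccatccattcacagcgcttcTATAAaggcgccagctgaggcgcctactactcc
Fosb: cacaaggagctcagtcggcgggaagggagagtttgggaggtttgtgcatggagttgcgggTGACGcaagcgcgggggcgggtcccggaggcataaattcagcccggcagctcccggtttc
Fosl2: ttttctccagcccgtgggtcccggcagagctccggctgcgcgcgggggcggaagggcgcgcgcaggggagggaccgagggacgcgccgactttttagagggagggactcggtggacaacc
Jun: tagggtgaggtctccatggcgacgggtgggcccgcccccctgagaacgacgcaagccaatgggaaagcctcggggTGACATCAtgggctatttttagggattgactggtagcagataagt
Junb: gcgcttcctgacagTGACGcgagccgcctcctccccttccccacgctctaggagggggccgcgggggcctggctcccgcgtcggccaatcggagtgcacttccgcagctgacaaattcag
Batf: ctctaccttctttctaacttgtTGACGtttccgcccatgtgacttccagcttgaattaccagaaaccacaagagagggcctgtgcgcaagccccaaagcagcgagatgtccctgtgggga

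On either strand, TGACG, the core of a cAMP response element, was in 5 of the 9 promoters (Fos, Fosb, Junb, Batf and Atf3, in Atf3 on the opposite strand) and in 21% of 27025 promoters of the same length. The Fosb window reaches into the RefSeq gene range, which ends at 19310118, and the GENCODE start of Jund lies downstream of the RefSeq start used here, so both windows depend on the start chosen. The Jun window held TGACATCA from 45 to 38 bases before the start, a match to TGACNTCA, which was in 8.97% of all promoters and contains neither TGACG nor its complement here. TGANTCA, the AP-1 element itself, was in 0 of the 9 and in 7.93% of all, and the CArG box of serum response factor in 0 of the 9 and 1.57% of all. A kappa B site was in 0 of the 9 and 1.62% of all. Bases farther than 250 before the start were not read, so these counts do not show that a gene lacks such an element. TATAA, read on the gene's strand, was in the Fos and Junb promoters and in 18.2% of all. The Fos match lay from 33 to 29 bases before the start. The Junb match lay at bases 0 to 4 from the start, beyond the bases printed. Fosl2, with the largest rise, held no match in these 300 bases, and TGACG was in the promoters of Fos, which rose, and of Batf, which fell, so a match is a description.

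The 3′ untranslated regions (3′UTR) were read because AU-rich pentamers and stem-loops of such regions are bound by proteins that control mRNA decay, and Regnase-1 is known to cut mRNA at stem-loops. In GENCODE vM21 transcripts (GRCm38), the pentamer ATTTA occurred 4 times in the 815 bases of the Fos 3′UTR, 8 times in the 4653 bases of Fosl2, 4 times in Jun, 3 times in Atf3, 2 times in Junb and 1 time each in Fosb, Fosl1 and Jund. It was absent from Batf and Batf3. Among 9535 genes tested with a 3′UTR, 69.2% held at least 1, with a median of 1.31 per kb and a 90th percentile of 4.11 per kb. Fos had 4.91 per kb, Junb 4.12, Jun 3.24, Atf3 2.53, Jund 1.88, Fosl2 1.72, Fosl1 1.57 and Fosb 0.466. The 4 members called higher (Fos, Fosl2, Jun and Junb) were above the median. So were Atf3, which was not called, and Fosl1, higher by adjusted p alone. Batf, which was called lower, held no pentamer, but its 3′UTR had only 335 bases, against a median of 1119. Fosb, higher by adjusted p alone, was below the median, and Jund, lower by adjusted p alone, was above the median. A link between pentamers and these changes was not tested. The 30-base windows with the most pentamers, in capitals, are shown for Fos (chr12:85477100-85477129, plus strand), Fosl2 (chr5:32156864-32156893, plus strand) and Jun (chr4:95049207-95049236, minus strand), all in the 3′UTR, since these held 2 pentamers each.
Fos: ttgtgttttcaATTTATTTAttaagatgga
Fosl2: aattgacATTTAttttattATTTAttttaa
Jun: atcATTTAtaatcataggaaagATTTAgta

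Stem-loops that met the criteria of the study's methods (a stem of at least 3 pairs with a G-C pair and a loop of 3 to 6 bases with a pyrimidine-purine-pyrimidine run) were predicted in each of the 9 members tested, 11 in Fosl2, 9 in Fosb, 5 in Fos, 4 each in Jun, Junb and Atf3, 3 in Fosl1, and 2 each in Jund and Batf. At least 1 was predicted in 82.6% of 9515 genes, with a median of 2.49 per kb. Batf, which fell, had 5.97 per kb, and Fosl2, Jun, Fos and Junb, which rose, had 2.36, 3.24, 6.13 and 8.25 per kb, with Fosl1 at 4.7, Fosb at 4.2, Jund at 3.75 and Atf3 at 3.37 per kb. A loop made of the 3-base run alone, a subset chosen after the values were seen, was found in 31.5% of genes and in 5 members, and is shown in capitals for the 2 of these that were called, Fosl2 (chr5:32156364-32156374, plus strand) and Jun (chr4:95050013-95050025, minus strand), both in the 3′UTR of GRCm38 transcripts. Binding to these structures was not measured here.
Fosl2: gcagCATctgc
Jun: cgggcTGTgcccg

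Of the other bZIP factors, 4 of 24 tested were called higher and 0 lower (by adjusted p alone 7 higher and 6 lower), against 8.52% and 8.34% of all genes tested (21.2% and 32.1% by adjusted p alone), the shares that also stand beside the lists below, with a median log2 fold change of -0.06 (0.08 with median-of-ratios factors, -0.38 with TPM). Ddit3, which encodes the stress factor CHOP, went from 16.4 and 14.7 to 62.2 and 66.6 FPKM (log2 fold change 1.98, limma adjusted p = 1.5e-05). Maff, a small MAF protein, went from 6.68 and 7.52 to 30.7 and 26.1 FPKM (1.86), Bach1, a repressor that pairs with small MAF proteins, from 4.36 and 4.08 to 10.9 and 12.6 FPKM (1.29), and Crem, a cAMP-responsive factor, from 15.6 and 17.7 to 35.0 and 47.8 FPKM (1.25). Both R111A libraries were above both WT libraries for each of these 4 genes, as for 32.0% of all genes tested.

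Routes that induce or activate AP-1 were mixed. In the RAS-ERK route, 0 of 13 genes were called in either direction by limma with the 2-fold threshold, while 2 were higher and 6 lower by adjusted p alone, with a median of -0.34, against 4 called lower and a median of -0.67 with TPM. In the JNK and p38 route, 3 of 15 genes were called higher and 1 lower, with a median of 0.37 (0.05 with TPM). With TPM, 3 were called higher and 3 lower, and with median-of-ratios factors 5 were called higher. By adjusted p alone, 6 were higher and 3 lower, and 0 were called lower with a pseudocount of 5 FPKM. Gadd45b, which binds and activates the kinase MEKK4, rose from 76.8 and 96.2 to 617 and 476 FPKM (2.64), and Gadd45a from 2.07 and 2.22 to 9.05 and 7.34 FPKM (1.54). Map2k3, a kinase of p38, rose from 83.7 and 84.5 to 297 and 245 FPKM (1.67), while Map3k4, which encodes MEKK4, fell from 6.88 and 5.74 to 1.73 and 1.23 FPKM (-1.56).

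Among SRF and CREB regulators of Fos and Jun, 0 of 10 genes were called in either direction, with a median of -0.02 (-0.31 with TPM, 0.10 with median-of-ratios factors), and by adjusted p alone 2 were higher and 1 lower. Atf1 was at 42.9 and 39.5 FPKM in the WT libraries against 33.6 and 30.9 in R111A (adjusted p = 0.054), and Srf, the factor that binds the CArG box, at 32.8 and 34.9 against 28.4 and 21.2 FPKM (-0.45, adjusted p = 0.045). The 2 higher genes were Elk4, at 19.8 and 15.8 against 22.5 and 28.6 FPKM (0.50), and Elk1, at 5.33 and 5.62 against 7.76 and 8.27 FPKM (0.48). Among regulators of Jun protein turnover, 1 of 8 was called higher and 0 lower, with a median of -0.01 (0.13 with median-of-ratios factors), against 0 higher, 1 lower and a median of -0.32 with TPM. Ndfip2, an adaptor of the ubiquitin ligase Itch, rose from 19.96 and 22.7 to 48.8 and 52.1 FPKM (1.21). Ndfip1, another such adaptor, was at 313 and 335 against 536 and 575 FPKM (0.78, adjusted p = 0.00099).

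Of 11 DNA-binding partners, 1 was called higher and 2 lower, with a median of -0.30 (-0.63 with TPM), against 0 higher with TPM or without R111A replicate 1. Irf4, the partner of BATF, fell from 426 and 368 to 117 and 135 FPKM (-1.65, adjusted p = 3.8e-05), and Irf8, which can also pair with BATF, from 129 and 139 to 28.5 and 19.9 FPKM (-2.44). Both R111A libraries were far below WT for Irf4 and Irf8, as for Batf. Runx1, a factor bound beside AP-1 at many T cell genes, rose from 8.69 and 7.97 to 22.7 and 17.5 FPKM (1.16). Nfatc1, a calcium-induced partner of AP-1, was at 60.0 and 51.0 against 94.8 and 63.9 FPKM (0.48, adjusted p = 0.061), while Nfatc2 at 7.57 and 6.45 against 4.90 and 3.52 FPKM (-0.63, adjusted p = 0.015) and Nfatc3 at 28.4 and 23.6 against 18.0 and 18.1 FPKM (-0.50, adjusted p = 0.019) were lower.

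Of 15 T cell genes with AP-1 or NFAT-AP-1 elements, 8 reached 1 FPKM in both groups, of which 2 were called higher and 4 lower, with a median of -0.61, and after rescaling to TPM 0 were called higher. Another 4 (Il3, Il13, Csf2 and Gzmb) passed the filter through WT alone, where they were high, and so had to differ. The cytokine Il2 fell from 100.1 and 96.9 to 3.98 and 2.58 FPKM (-4.56, adjusted p = 2.7e-06), Il4 from 10.2 and 15.5 to 1.42 and 0.70 FPKM (-2.74) and Il13 from 6.01 and 5.98 to 0.13 and 0.15 FPKM (-2.62). The protease gene Gzmb fell from 7.07 and 6.67 to 0.10 and 0.77 FPKM (-2.50). Fasl, the ligand of the Fas death receptor, rose from 18.0 and 19.3 to 43.3 and 47.6 FPKM (1.24) and Cd69, an early activation receptor, from 221 and 242 to 454 and 651 FPKM (1.23). Among BATF-IRF4 target genes, 3 of 8 reached 1 FPKM in both groups, of which 1 was called higher and 1 lower, with a median of -0.34, and 3 more, Il10 among them, passed through WT alone. Bcl6, a repressor that drives the follicular helper program, rose from 7.20 and 5.95 to 37.3 and 30.5 FPKM (2.20), while Il10 fell from 3.51 and 4.76 to 0.29 and 0.26 FPKM (mean 15.0-fold higher in WT) and Ctla4, an inhibitory receptor, from 38.9 and 44.3 to 8.94 and 12.0 FPKM (-1.90).

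Other immediate early genes were called higher in 10 of 15 and lower in 1, with a median of 1.47, against 7 higher and a median of 0.84 without R111A replicate 1. The nuclear receptor genes Nr4a2 and Nr4a1 rose by 2.71 and 2.42, Btg2, an antiproliferative gene, by 2.07 and Dusp1, a phosphatase of MAP kinases, by 1.92. Nr4a1 was at 146 and 144 FPKM in the WT libraries against 983 and 616 in R111A. Myc fell from 228 and 204 to 128 and 87.6 FPKM (-1.02), and its call was lost with median-of-ratios factors, quantile normalization, a pseudocount of 5 FPKM, the correction for length and GC content, and without WT replicate 1 or R111A replicate 2. Among heat shock and dissociation stress genes, which rise with handling of cells, 9 of 12 reached 1 FPKM in both groups, of which 0 were called higher and 2 lower, with a median of -0.66, while Hspa1a and Hspa1b passed the filter through R111A alone. Hspa1b was at 0.83 and 0.41 against 6.43 and 3.50 FPKM and Hspa1a at 0.24 and 0.41 against 2.27 and 2.45 FPKM, whereas the constitutive chaperone Hspa8 fell from 4150 and 3965 to 1870 and 1922 FPKM and Hspd1 from 933 and 800 to 287 and 327 FPKM. The part of handling in the Fos and Jun values was not tested.

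**Figure D5:**
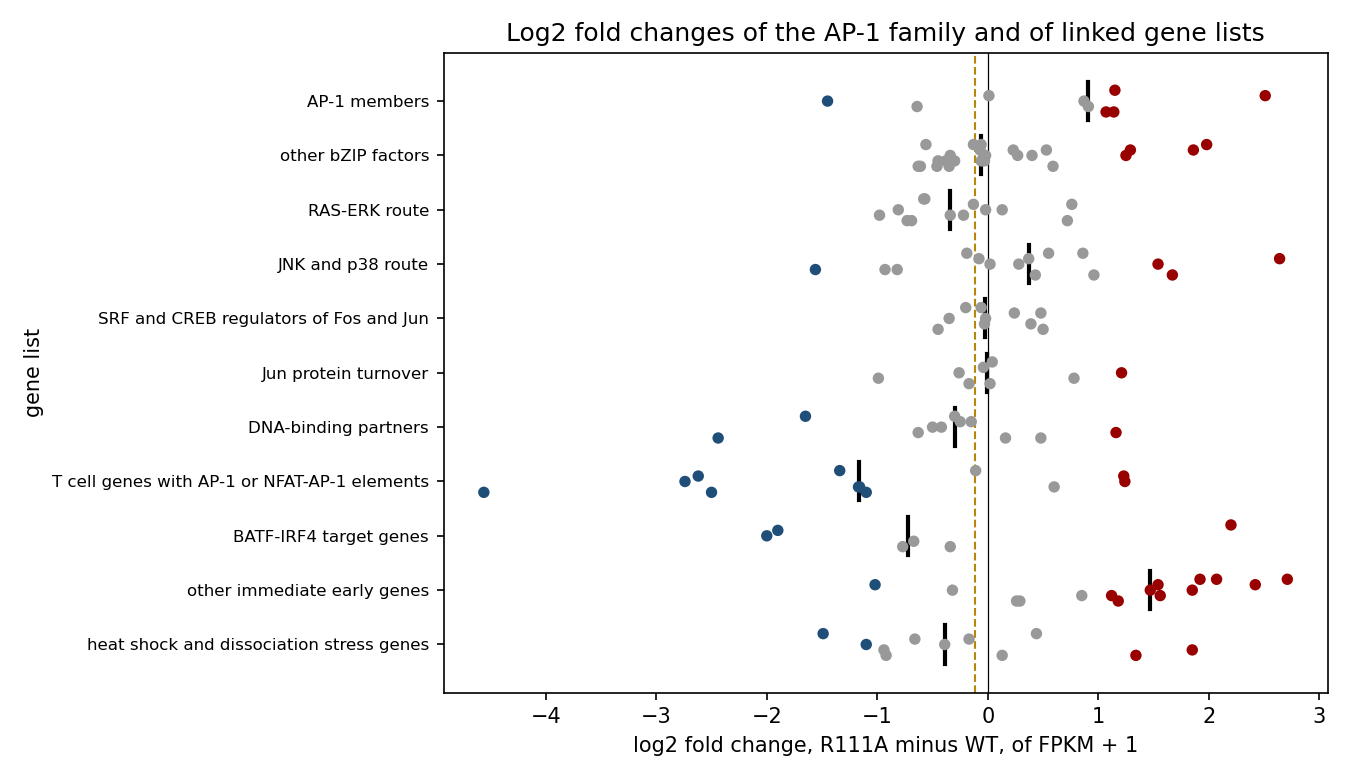
Log2 fold change, R111A minus WT, of each tested gene of the AP-1 family and of 10 linked lists, with 1 point per gene, red called higher, blue called lower and grey not called. Black bars mark each list's median, from -1.16 for the T cell genes with AP-1 or NFAT-AP-1 elements to 1.47 for other immediate early genes, and without genes that passed the filter through 1 group alone they would be -0.61 for these T cell genes, -0.34 instead of -0.72 for BATF-IRF4 target genes and -0.66 instead of -0.39 for heat shock genes, and the dashed line marks the median of all genes at -0.12.

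The labelled cell type was read from its markers. The 9 CD4 T cell markers, led by Cd3g, summed to 2291 and 2301 FPKM in WT and 2007 and 1802 FPKM in R111A. Of these, 0 were called higher and 1, Cd4, was called lower (158 and 131 against 70.7 and 51.4 FPKM). By adjusted p alone, 1 was higher, Cd3d (205 and 214 against 275 and 267 FPKM), and 4 were lower. Among these 4, Cd3g was at 454 and 465 against 289 and 313 FPKM (-0.61). Cd3e was at 172 and 157 against 180 and 135 FPKM. Of 2 CD8 T cell markers, Cd8a was at or below 0.20 FPKM in each library, while Cd8b1 was at 7.21 and 6.56 against 3.86 and 4.39 FPKM (-0.62, adjusted p = 0.0066). Among 7 B cell markers, Cd79a, which passed the filter through R111A alone, was at 0.32 and 0.24 against 2.99 and 2.37 FPKM, and the list summed to 2.23 and 1.06 FPKM in WT and 5.32 and 4.60 FPKM in R111A. Myeloid markers, 14 in number and led by Cd68, summed to 2.97 and 2.23 FPKM in WT and to 17.8 and 12.6 FPKM in R111A. Lyz2 was at 0.45 and 0 against 3.01 and 2.37 FPKM. Mpeg1 was lower, at 0.70 and 0.73 against 0.37 and 0.33 FPKM, and S100a8 overlapped, at 0 and 0.55 against 2.20 and 0 FPKM. S100a9 and Csf3r were listed at 0 in each library. NK markers summed to 1.24 and 1.00 FPKM in WT and 8.61 and 6.73 FPKM in R111A. Eomes, which passed the filter through R111A alone, made 6.68 and 4.32 FPKM of the R111A sums. Klre1, the next highest there, was at 0.10 and 0 against 0.78 and 1.10 FPKM, and Ncr1 at 0.05 and 0 against 0.30 and 0.12 FPKM. Erythroid and platelet markers summed to 0.66 and 0.70 against 13.0 and 13.1 FPKM, of which Hba-a1, which passed the filter through R111A alone, made 12.3 and 11.7 FPKM in R111A, while Hba-a2, Hbb-bs and Pf4 were listed at 0 in each library. Among 6 Treg markers, Foxp3 and Lrrc32 were called lower and Tnfrsf9 higher, and Foxp3 was at 11.3 and 8.78 against 2.86 and 1.86 FPKM. In R111A, the myeloid and erythroid sums were above the levels of Fos, Fosb and Atf3 and near that of Jun. They were below those of Fosl1, Fosl2, Batf, Jund and Junb. Such a sum over several markers is unlike the level of a single gene, and Cd68 alone made 8.89 and 6.81 FPKM of the myeloid sums. It does not measure how much AP-1 mRNA other cells supplied. These lists moved with the groups, and their part in the AP-1 values was not tested.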

How the data were processed

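RNA-seq values of 2 WT and 2 R111A libraries were analysed. The authors selected polyA RNA and aligned reads to mm10; the submitters' processing notes name Bowtie2 (2.4.4) and RSEM (1.2.28). The deposited unit is FPKM, without counts. Among values from 0.1 to 0.6 FPKM, depth relative to WT replicate 1 was estimated as 0.999 for WT replicate 2, 0.947 for R111A replicate 1 and 0.841 for R111A replicate 2. log2(FPKM + 1) was fitted with limma 3.58.1 in R 4.3.3 (lmFit, eBayes with trend, Benjamini-Hochberg adjustment). Sequences came from RefSeq (GRCm38.p6) and GENCODE vM21. RNAfold 2.7.2 folded 3′UTRs in pieces of 100 bases. Other steps used python 3.11.15, numpy 2.4.6, pandas 2.3.3 and matplotlib 3.10.9. The members and gene lists were chosen with earlier results of these data known. Named genes were the 10 members and up to 4 genes a direction with the largest change among those called in each list. Lists with fewer than 2 such genes also gave their 2 most abundant genes. Zc3h12a, Il2, Irf4, Nfatc1 and defining markers were always named. Values of some of these, and 1 further list, are left out. Some genes that went the other way in a list are named as well. Alternatives were other pseudocounts, filters, scalings, eBayes settings and call rules, a replicate block, each library left out and, added after the data were seen, a loess correction for transcript length and GC content.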

Additional observations from a re-analysis of the deposited data

How the results depend on the processing

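With 2 libraries a group, the intervals rest on the spread of 4 libraries, and the cause of any change in a result below was not tested. Fosl2 and Batf kept their calls in each of the 4 leave-out fits and 11 other settings run with the 2-fold threshold, whereas Fos, Jun and Junb did in 9 of these 11. Where a group was left with 1 library, that library was assumed to vary like the other group. The replicate numbers are shared between the groups by number only, in 2 pairs with a correlation of 0.11, and a block for this pairing moved the calls from 838 higher and 820 lower to 841 and 821. It changed no call of a member. Spread between replicates of genes at 50 FPKM or more was 0.124 in WT and 0.316 in R111A. Of 725 alternative values of the results, 602 kept their direction, their side of the threshold or their size, and the 3 log2 fold changes of members that changed sign were of Atf3. Medians near 0 also changed sign: other bZIP, Jun turnover and SRF and CREB with some scalings, the last 2 also with 1 library left out, Jun turnover also after the length and GC correction, and all genes with median-of-ratios factors (0.02). Below, counts and medians of T cell genes, BATF-IRF4 targets and heat shock genes are over every gene tested, with 4, 3 and 2 genes that passed the filter through 1 group alone. Without these genes, the values before were 4 and 1 called lower for T cell genes and BATF-IRF4 targets, 0 called higher for heat shock genes, and medians of -0.61, -0.34 and -0.66, so the calls of these lists that go with the filter raised to 5 FPKM are of those genes alone.

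With a pseudocount of 0.1 FPKM, called lower were 1 (RAS-ERK, 0 before) and 4 (BATF-IRF4 targets, 2 before). There, median log2 fold changes were 1.08 (AP-1 members, 0.91 before), -1.96 (T cell genes, -1.16 before) and -1.35 (BATF-IRF4 targets, -0.72 before). There, log2 fold changes were 1.37 (Fosb, 0.91 before). With a pseudocount of 5 FPKM, called higher were 2 (AP-1 members, 4 before), 0 (DNA-binding partners, 1 before), 0 (heat shock genes, 2 before) and 386 (all genes, 838 before). There, called lower were 0 (JNK and p38, 1 before), 4 (T cell genes, 8 before), 1 (BATF-IRF4 targets, 2 before), 0 (immediate early genes, 1 before) and 402 (all genes, 820 before). There, median log2 fold changes were 0.73 (AP-1 members, 0.91 before), -0.64 (T cell genes, -1.16 before) and -0.25 (BATF-IRF4 targets, -0.72 before). There, log2 fold changes were 0.76 (Fos, 1.14 before) and 0.84 (Jun, 1.15 before). Without the filter, median log2 fold changes were -0.66 (BATF-IRF4 targets, -0.72 before). With the filter raised to 5 FPKM, called higher were 0 (heat shock genes, 2 before) and 521 (all genes, 838 before). There, called lower were 0 (JNK and p38, 1 before), 4 (T cell genes, 8 before) and 1 (BATF-IRF4 targets, 2 before). There, median log2 fold changes were -0.46 (RAS-ERK, -0.34 before), -0.61 (T cell genes, -1.16 before), -0.34 (BATF-IRF4 targets, -0.72 before) and -0.79 (heat shock genes, -0.39 before). After rescaling to TPM, called higher were 1 (AP-1 members, 4 before), 0 (Jun turnover, 1 before), 0 (DNA-binding partners, 1 before) and 0 (T cell genes, 2 before). There, called lower were 4 (RAS-ERK, 0 before), 3 (JNK and p38, 1 before), 1 (Jun turnover, 0 before), 4 (heat shock genes, 2 before) and 1756 (all genes, 820 before). There, median log2 fold changes were 0.72 (AP-1 members, 0.91 before), -0.38 (other bZIP, -0.06 before), -0.67 (RAS-ERK, -0.34 before), 0.05 (JNK and p38, 0.37 before), -0.31 (SRF and CREB, -0.02 before), -0.32 (Jun turnover, -0.01 before), -0.63 (DNA-binding partners, -0.30 before), -1.45 (T cell genes, -1.16 before), -0.92 (BATF-IRF4 targets, -0.72 before) and -0.72 (heat shock genes, -0.39 before). There, log2 fold changes were 0.86 (Fos, 1.14 before), 0.86 (Jun, 1.15 before), 0.74 (Junb, 1.07 before) and -0.30 (Atf3, 0.01 before). With median-of-ratios factors, called higher were 5 (JNK and p38, 3 before). There, called lower were 0 (immediate early genes, 1 before) and 1 (heat shock genes, 2 before). There, median log2 fold changes were 0.08 (other bZIP, -0.06 before), -0.19 (RAS-ERK, -0.34 before), 0.13 (Jun turnover, -0.01 before), -0.65 (BATF-IRF4 targets, -0.72 before) and -0.24 (heat shock genes, -0.39 before). There, log2 fold changes were 1.01 (Fosl1, 0.87 before). After quantile normalization, called lower were 0 (immediate early genes, 1 before). There, median log2 fold changes were 0.05 (other bZIP, -0.06 before), -1 (BATF-IRF4 targets, -0.72 before) and -0.16 (heat shock genes, -0.39 before). By adjusted p alone, called higher were 7 (other bZIP, 4 before), 2 (RAS-ERK, 0 before), 6 (JNK and p38, 3 before), 2 (SRF and CREB, 0 before), 2 (Jun turnover, 1 before) and 2088 (all genes, 838 before). There, called lower were 2 (AP-1 members, 1 before), 6 (other bZIP, 0 before), 6 (RAS-ERK, 0 before), 3 (JNK and p38, 1 before), 1 (SRF and CREB, 0 before), 1 (Jun turnover, 0 before), 4 (DNA-binding partners, 2 before), 4 (BATF-IRF4 targets, 2 before), 5 (heat shock genes, 2 before) and 3152 (all genes, 820 before). There, log2 fold changes were 0.91 (Fosb, 0.91 before), 0.87 (Fosl1, 0.87 before) and -0.64 (Jund, -0.64 before). After correction for transcript length and GC content, called lower were 0 (immediate early genes, 1 before). There, log2 fold changes were 0.98 (Junb, 1.07 before).

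With 1 library left out in turn, called higher were 1 to 6 (AP-1 members, 4 before), 0 to 1 (DNA-binding partners, 1 before), 1 to 2 (T cell genes, 2 before) and 1 to 2 (heat shock genes, 2 before). With 1 library left out in turn, called lower were 0 to 1 (Jun turnover, 0 before), 0 to 1 (immediate early genes, 1 before) and 0 to 1 (RAS-ERK, 0 before). With 1 library left out in turn, median log2 fold changes were -1.03 to -0.59 (BATF-IRF4 targets, -0.72 before), 0.74 to 1.2 (AP-1 members, 0.91 before), -0.48 to -0.21 (RAS-ERK, -0.34 before), 0.84 to 1.59 (immediate early genes, 1.47 before), -0.72 to -0.19 (heat shock genes, -0.39 before) and -0.16 to -0.03 (other bZIP, -0.06 before). With 1 library left out in turn, log2 fold changes were -0.09 to 0.12 (Atf3, 0.01 before), 0.98 to 1.30 (Fos, 1.14 before), 0.91 to 1.39 (Jun, 1.15 before), 0.78 to 1.36 (Junb, 1.07 before), 0.74 to 1.07 (Fosb, 0.91 before), 0.54 to 1.2 (Fosl1, 0.87 before), -0.93 to -0.35 (Jund, -0.64 before), 2.45 to 2.58 (Fosl2, 2.51 before) and -1.53 to -1.38 (Batf, -1.45 before).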
